A study of Mus musculus with 6 samples.

Results

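The chemokines and inflammatory cytokines of a mouse lung adenocarcinoma line were followed in cells made to express the microRNA cluster miR-200b-200a-429 and in cells with a control vector. Members were chosen by gene symbol: every Cxcl, Ccl or Cx3cl gene with a number, a suffix letter allowed, and the cytokine genes Il6, Il11, Lif, Il1a, Il1b, Il18, Il33, Csf1, Csf2, Csf3, Tnf and Tslp. Of 18193 genes measured by a probe set with 1 gene symbol, 44 belong here, 32 chemokines and 12 cytokines. They have 66 probe sets; where a gene has several, the one with the highest mean of 6 arrays stands for it. Of 15 members with several probe sets, 6 have probe sets that differ in sign, and these are named with their values.

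The cells, 344SQ, came from tumor tissue at a subcutaneous site in a p53R172H∆g/+ K-rasLA1/+ mouse, so both groups carry these alleles. Both were transduced with lentivirus and selected with puromycin as GFP-positive pools. Each group has 3 cultures with 1 array each: control A, B and C carry the control vector, and miR-200 A, B and C express the cluster. Nothing in the labels says that cultures of a group were transduced separately, so a p-value covers culture-to-culture spread that may be technical, and a stable difference between the transduced pools cannot be told apart from an effect of the microRNAs.

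Chemokines are small secreted proteins that attract leukocytes through receptors on their surface. CXC chemokines with the ELR motif act on Cxcr2 and draw neutrophils, a further set induced by interferon acts on Cxcr3 and draws T cells, and CC chemokines draw monocytes, eosinophils, dendritic cells and lymphocytes. Epithelial tumor cells make many of them, together with IL-6 and IL-1 family cytokines and colony-stimulating factors, often under the transcription factor NF-kB. The miR-200 family represses Zeb1 and Zeb2 and is best known for holding cells in an epithelial state.

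The forced microRNAs are shown because they are the only intended difference between the groups; they were not measured on these arrays. The mature sequences are those of RefSeq on GRCm38.p6, 5′ to 3′, with the seed, bases 2 to 8, in capitals. All 3 lie on the minus strand of chromosome 4, at chr4:156055685-156055706, chr4:156054911-156054932 and chr4:156053916-156053937 in the order printed.
mmu-miR-200b-3p: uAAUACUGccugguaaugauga
mmu-miR-200a-3p: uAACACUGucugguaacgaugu
mmu-miR-429-3p: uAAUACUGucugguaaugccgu
The seed AAUACUG is shared by miR-200b and miR-429, and miR-200a has AACACUG. Target sites in the members' transcripts were not analysed here.

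Values are log2 signals after quantile normalization. The background gauge, 5.28, is the highest reading of the array's bacterial TrpnX controls. Over the whole array 2 cultures stood apart: the deviations of control B and miR-200 A from their group means correlated at 0.71 across the brightest 60% of probe sets. All 11 proliferation genes measured (Mki67, Top2a and others) were lower on these 2 arrays than on the other 4, and their median read 7.66 (control B) and 7.25 (miR-200 A) against 11.43 to 11.54 elsewhere. The part of this in the results below was not tested, and results are given with and without these cultures. The epithelial cadherin gene Cdh1 read 13.14 to 13.46; of 7 epithelial markers, Cldn4 and Cldn7 rose, and of 7 lung markers Sftpb fell, while Sftpc and Scgb1a1 lay under the gauge on every array. In bulk cultures, fewer cells of a kind and less RNA per cell cannot be told apart. Of 14 leukocyte markers measured, 0 passed the test, and their summed linear signal ran from 1158 to 1509 in control and from 1073 to 1699 in miR-200 cultures. Group means above the gauge were seen for 8 of them in control and 9 in miR-200 cells; the pan-leukocyte gene Ptprc read 5.29 to 5.91, the macrophage gene Mpeg1 was at 0 on every array but miR-200 A, and Adgre1 read 8.55 to 9.04. The lysosomal macrophage marker Cd68 read 6.81, 8.87 and 6.46 in control and 8.98, 5.73 and 5.97 in miR-200 cells, and the neutrophil gene S100a9 read 2.99, 5.24 and 3.38 against 5.76, 3.64 and 4.73. These 2 of the 14 were highest on control B and miR-200 A (14.3%, against 14.1% of all genes). The B-cell gene Ms4a1 was lowest on both (7.14%, against 15.2%). S100a9 had both group means under the gauge. The part of these genes in the members' values was not tested.

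None of the 44 members passed the test between miR-200 and control cells. With limma across all 45037 probe sets and Benjamini-Hochberg adjustment at 0.05, 0 of 44 members passed, against 0.945% of all genes. None of the 66 probe sets passed either, and the smallest adjusted p of a member was 0.0911. Before adjustment, limma gave p under 0.05 for 2 higher members (4.55%, against 6.35% of all genes) and 4 lower ones (9.09%, against 8.47%). In 5 members all miR-200 values lay above all control values (11.4%, against 11.4% of all genes) and in 4 all lay below (9.09%, against 12.1%). These shares are near those of the array. The members' median log2 difference was -0.0436, beside 0.0014 for all genes, and it was 0.00951 with the values as deposited. Of the 44, 30 had a group mean above the background gauge and 14 lay under it in both groups. Lying above the gauge does not by itself show a transcript. In control cells 13414 of 18193 genes lay above it, as did 8 of 14 leukocyte markers.

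**Figure D1:**
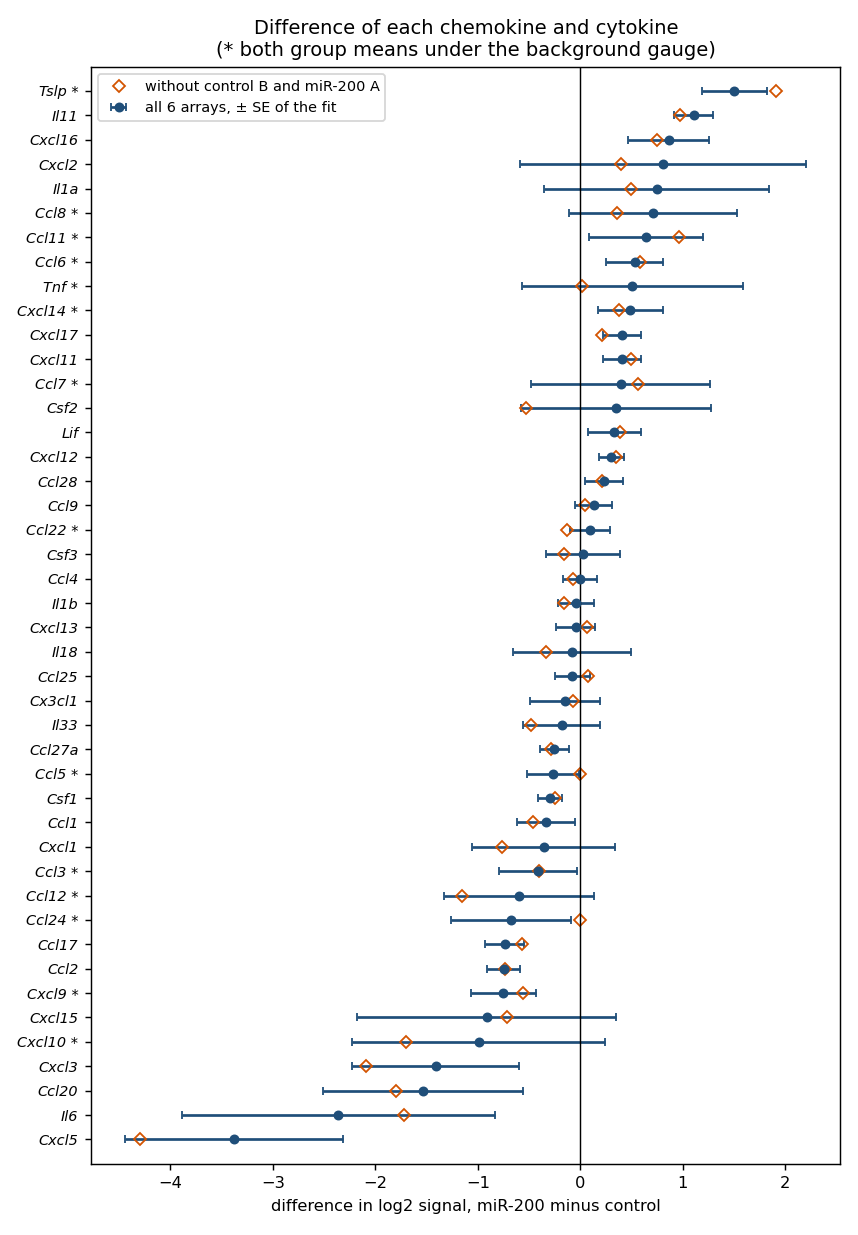
Difference in log2 signal, miR-200 minus control, for each of the 44 genes. Filled points are all 6 arrays with limma's standard error, open diamonds the difference of means without control B and miR-200 A, and stars mark genes under the background gauge in both groups. Cxcl5 stands at the bottom at -3.38 and moves to -4.30 without these arrays, while Cxcl2 and Il6 carry the widest error bars.

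The ELR CXC chemokines, the neutrophil attractants, held the largest difference of any member above the gauge. Cxcl5 read 12.65, 13.52 and 12.67 in control A, B and C and 11.99, 8.53 and 8.19 in miR-200 A, B and C. All 3 miR-200 cultures lay below all controls, but miR-200 A stayed close to the control cultures while B and C were far lower. The difference was -3.38 ± 1.06 (log2 ± SE, n = 3 per group), with 12.95 ± 0.50 (SD) in control and 9.57 ± 2.10 in miR-200 cells, and did not pass (limma, adjusted p = 0.260). It passed without miR-200 A (-4.59 ± 0.34, adjusted p = 0.0311) and without both cultures that stand apart (-4.30 ± 0.16, adjusted p = 0.0480). Between these cultures themselves, miR-200 A minus control B was -1.53. With a 2-level term for them, Cxcl5 did not pass (adjusted p = 0.0872).

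Cxcl3 and Cxcl1 had smaller differences that likewise came from miR-200 B and C. Cxcl3 read 10.55, 11.20 and 10.49 in control and 11.16, 8.74 and 8.12 in miR-200 cells. Here miR-200 A read like the highest control, and the other miR-200 cultures lay below every control. The difference was -1.41 ± 0.82 (adjusted p = 0.506), and -2.09 ± 0.26 without the cultures that stand apart (adjusted p = 0.106). With 1 array left out it ranged from -2.32 without miR-200 A to -0.80 without miR-200 C, and did not pass. Cxcl1, whose 3 probe sets differed by -0.36, -0.33 and -0.26, read 11.61, 12.63 and 11.71 in control and 13.08, 11.15 and 10.64 in miR-200 cells. The groups overlapped, with the highest and the lowest value both in miR-200 cultures, and the difference was -0.36 ± 0.70 (adjusted p = 0.861).

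Cxcl2 and Cxcl15 followed the cultures that stand apart more than the vector. Cxcl2 read 6.43, 9.29 and 6.55 in control and 10.92, 7.12 and 6.65 in miR-200 cells. Control B and miR-200 A were each more than 2 log2 units above the rest, and the difference between groups was 0.81 ± 1.40 (adjusted p = 0.842). Cxcl15, known in mice as lungkine of the airway epithelium, read 5.25, 8.70 and 5.30 against 7.39, 4.81 and 4.32. Again these cultures were the highest, and the other 4 arrays lay near or under the gauge (-0.91 ± 1.26, adjusted p = 0.796).

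**Figure D2:**
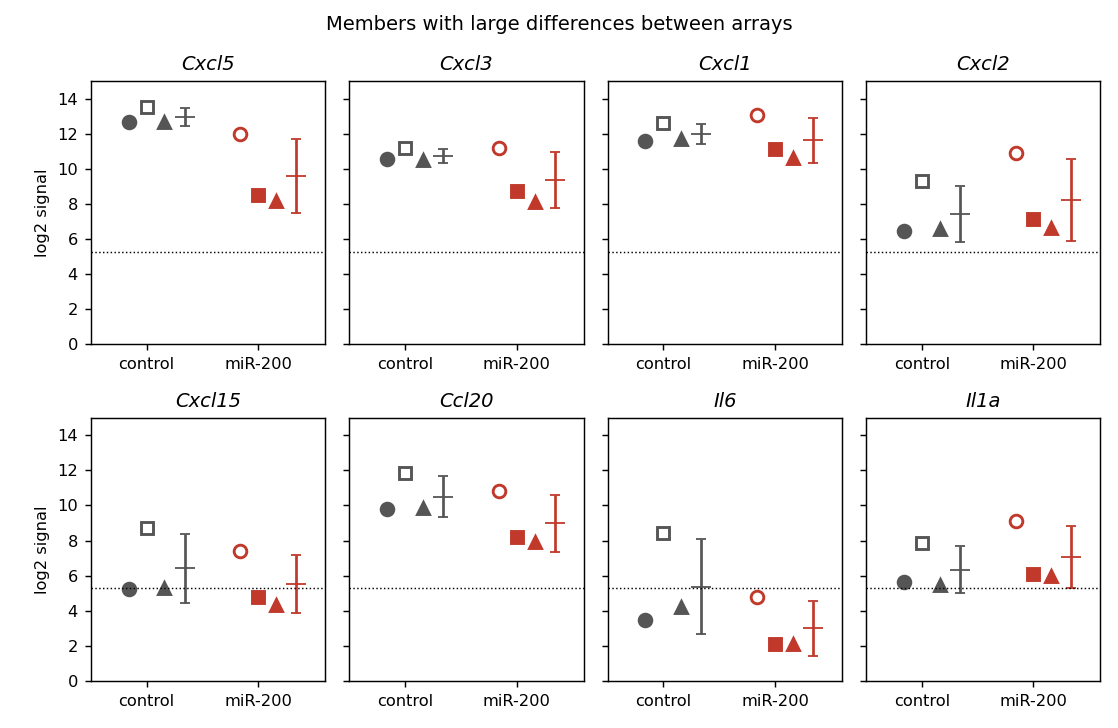
Log2 signal of 8 members on each array, grey for control and red for miR-200 cells; circles, squares and triangles are cultures A, B and C, open symbols control B and miR-200 A, and the bars show mean ± SD of 3 cultures. The dotted line is the background gauge at 5.28. The open symbols lie above the filled ones of their own group in each panel. The filled red symbols lie below all grey symbols in each panel but those of Cxcl2 and Il1a, and for Cxcl15 and Il6 they are under the gauge.

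The promoters of 3 of these neighbours, Cxcl1, Cxcl2 and Cxcl3, share a stretch with the letters of an NF-kB site. They are printed with that of Il6, which has the motif but read above the gauge on control B alone. Whether the motif goes with high readings on control B and miR-200 A was not tested. The motif GGANTTTCC was searched on both strands (reverse GGAAANTCC) in the 250 bases before the gene start, in RefSeq sequence of GRCm38.p6. It was found in 6 of 32 members with a promoter in the table (18.8%) and in 337 of 27025 genes (1.25%). Only this form of the site was searched. The shares depend on that choice of letters and were not tested. The members outside these 32, Cxcl5 among them, had no promoter sequence to search. The members with the motif were Cxcl1, Cxcl2, Cxcl3, Il6, Csf1 and Cxcl10. Csf1 read lowest on miR-200 A by its brightest probe set. A dimmer Csf1 probe set, with both group means above the gauge, read highest on control B (7.77) and miR-200 A (6.81). The promoters of Csf1 and Cxcl10 are not printed. Printed 5′ to 3′ are the 110 bases before the start, with the match in capitals, all on the plus strand of chromosome 5, at chr5:90891135-90891244, chr5:90903789-90903898, chr5:90785991-90786100 and chr5:30013004-30013113 in order.
Cxcl1: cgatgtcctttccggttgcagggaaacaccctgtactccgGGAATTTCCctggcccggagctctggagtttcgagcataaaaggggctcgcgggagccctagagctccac
Cxcl2: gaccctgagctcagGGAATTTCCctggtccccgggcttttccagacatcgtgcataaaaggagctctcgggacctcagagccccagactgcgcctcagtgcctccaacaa
Cxcl3: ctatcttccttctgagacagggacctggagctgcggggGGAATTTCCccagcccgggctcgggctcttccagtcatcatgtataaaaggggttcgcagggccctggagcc
Il6: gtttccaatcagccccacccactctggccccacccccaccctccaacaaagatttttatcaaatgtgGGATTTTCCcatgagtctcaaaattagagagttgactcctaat
The matched letters are GGAATTTCC in Cxcl1, Cxcl2 and Cxcl3 and GGATTTTCC in Il6, and they begin at -70, -96, -72 and -43 from the start. A match describes letters only; binding was not measured.

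A further ligand of Cxcr2, whose symbol lies outside the rule, rose in the miR-200 cells. Ppbp, also known as Cxcl7, read 6.45, 7.32 and 6.20 in control and 9.91, 9.60 and 9.65 in miR-200 cells. The 3 miR-200 values lay close together and all above the controls, miR-200 A included. The difference was 3.07 ± 0.32, 8.37-fold higher, and passed (limma, adjusted p = 0.0281), also without the 2 cultures that stand apart (3.30 ± 0.13, adjusted p = 0.0481). With 1 array left out it passed without control B (3.40, adjusted p = 0.0233) but not without any of the other 5 (2.84 to 3.13, adjusted p = 0.0721 to 0.149). On the chromosome, RefSeq orders the protein-coding genes of this cluster as Cxcl5, Ppbp, Pf4, Cxcl3, Cxcl15, Cxcl1 and Cxcl2. Ppbp thus sits beside Cxcl5, whose values differed in the other direction. Pf4, also a platelet chemokine gene, differed by 0.03 (adjusted p = 0.981).

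The ligands of Cxcr3 gave little signal. Cxcl10 read 4.21, 5.45 and 3.81 in control and 5.87, 3.49 and 1.14 in miR-200 cells, with group means under the gauge. Cxcl9 was under it on all 6 arrays. Cxcl11 read 6.42, 6.49 and 6.03 against 6.72, 6.56 and 6.87. Its miR-200 values lay all above control by a narrow margin (0.41 ± 0.18, adjusted p = 0.396), whereas its dimmer probe set, with both group means under the gauge, differed by -2.37 (adjusted p = 0.264), a difference between readings near background.

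Of the other 5 CXC chemokines, 4 had differences above 0, and none passed. Cxcl12, the ligand of Cxcr4, read 9.27, 9.43 and 9.30 in control and 9.64, 9.70 and 9.56 in miR-200 cells. The groups did not overlap, and the difference of 0.30 ± 0.12 did not pass (adjusted p = 0.357). The other probe sets of Cxcl12 were under the gauge on every array and differed by 0.47 and 0.04. Cxcl16, a membrane-bound ligand of Cxcr6, read 8.05, 8.85 and 8.12 against 9.93, 8.79 and 8.88. Only control B reached the miR-200 range (0.86 ± 0.39, adjusted p = 0.406). A dimmer probe set of Cxcl16 differed by 2.17 in the same direction (adjusted p = 0.360). Cxcl17, a mucosal chemokine of the airways, read 7.61, 7.59 and 7.80 against 8.38, 8.02 and 7.81, again without overlap but with miR-200 C just above control C (0.41 ± 0.19, adjusted p = 0.409). Cxcl13 and Cxcl14 differed by -0.04 and 0.49; both probe sets of Cxcl14 were under the gauge in both groups, and the dimmer one differed by -0.25.

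Among inflammatory CC chemokines, Ccl2 had the clearest separation. This attractant of monocytes read 6.49, 6.35 and 6.64 in control and 5.57, 5.72 and 5.94 in miR-200 cells. The groups did not overlap and the cultures that stand apart read like the others of their groups. The difference was -0.75 ± 0.16, 1.68-fold lower, with an unadjusted p = 0.00423 that was lost on adjustment over the array in limma (adjusted p = 0.139). Ccl9, a further attractant of myeloid cells, read 8.44, 8.09 and 8.62 against 8.38, 8.63 and 8.52. It was the single member lowest on both cultures that stand apart (2.27%, against 15.2% of all genes), and the groups overlapped (0.13 ± 0.18, adjusted p = 0.802). Its dimmer probe set was above the gauge in both groups and differed in the other direction, by -0.65 ± 0.72 (adjusted p = 0.736), with its lowest value, 5.09, on miR-200 A. The other inflammatory members were dim. Ccl4 ran between 6.56 and 6.94 on all arrays, and Ccl3, Ccl5, Ccl6, Ccl7, Ccl8, Ccl11, Ccl12 and Ccl24 had both group means under the gauge. Ccl5, Ccl11 and Ccl24 were at 0 on 5 of 6 arrays each.

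Ccl20, the ligand of Ccr6 and a product of inflamed epithelium, was the CC chemokine that varied most. It read 9.81, 11.83 and 9.88 in control and 10.82, 8.18 and 7.91 in miR-200 cells. As for Cxcl3, miR-200 B and C lay below every control while miR-200 A lay within the control range. The difference was -1.54 ± 0.97 (adjusted p = 0.548), and -1.80 ± 0.14 without the cultures that stand apart (adjusted p = 0.0748). With 1 array left out it ranged from -2.46 without miR-200 A to -0.87 without control B, and did not pass. Ccl17, a ligand of Ccr4, read 5.52, 5.97 and 5.597 against 4.89, 4.79 and 5.20. Its groups did not overlap (-0.74 ± 0.19, adjusted p = 0.196), but the miR-200 mean lay under the gauge. Of the remaining members of this set, Ccl1, Ccl22, Ccl25, Ccl27a and Ccl28 differed by -0.33 to 0.23, and their groups overlapped. The other probe sets of Ccl28, under the gauge on every array, differed by 1.22 and -0.25. The fractalkine gene Cx3cl1, a membrane-bound chemokine, read 8.99, 9.93 and 9.05 against 9.63, 8.95 and 8.95. It was highest on control B and miR-200 A (-0.15 ± 0.34, adjusted p = 0.885), and its other 3 probe sets differed by 0.67, 0.33 and -0.44, with overlap except for the second.

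In the IL-6 family, Il11 came closest to the threshold of all members. It read 4.52, 4.42 and 4.30 in control and 5.79, 5.57 and 5.20 in miR-200 cells. The groups did not overlap; all control values and miR-200 C lay under the gauge, and the miR-200 mean was at least 1.18-fold higher (1.11 ± 0.19 on the log2 scale, adjusted p = 0.0911). With array weights Il11 passed (1.08 ± 0.16, adjusted p = 0.0391). Il6, a main inducer of the acute phase, read 3.45, 8.45 and 4.20 against 4.81, 2.08 and 2.13. Only control B read above the gauge. The difference was -2.36 ± 1.53 (adjusted p = 0.556), -0.82 without control B and -1.72 without the cultures that stand apart. Lif, a cytokine of the same receptor subunit Il6st, read 6.48, 7.05 and 6.47 against 7.28, 6.63 and 7.09, with overlap (0.33 ± 0.26, adjusted p = 0.625). A dimmer probe set of Lif differed by -1.22, but its readings were under the gauge on every array.

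The IL-1 family members were each highest on control B and miR-200 A. Il33, an alarmin of epithelial nuclei, read 12.17, 12.52 and 12.20 in control and 12.94, 11.66 and 11.74 in miR-200 cells. The groups overlapped (-0.18 ± 0.38, adjusted p = 0.873), with miR-200 B and C below all controls. Il1a, released by damaged epithelium, read 5.63, 7.88 and 5.48 against 9.13, 6.09 and 6.002. Its difference of 0.75 ± 1.10 (adjusted p = 0.810) was smaller than its standard error. Il18, which the inflammasome activates, read 7.70, 8.68 and 7.74 against 9.13, 7.32 and 7.44 (-0.08 ± 0.57, adjusted p = 0.972). Il1b stayed between 6.88 and 7.37, and control B (7.186) was barely above control C (7.182).

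The colony-stimulating factors drive growth of myeloid cells. Csf1, the macrophage factor, read 9.17, 9.19 and 9.09 in control and 8.81, 8.88 and 8.88 in miR-200 cells. The difference was small and even across cultures, without overlap (-0.29 ± 0.11, adjusted p = 0.344). The other 3 probe sets of Csf1 also had differences below 0, but in each of them the groups overlapped. Csf2, the granulocyte-macrophage factor, read 8.39, 8.49 and 7.64 against 10.59, 7.82 and 7.15. Only miR-200 A stood out, so the difference of 0.35 ± 0.93 (adjusted p = 0.906) turned to -0.53 without the cultures that stand apart. Csf3, the granulocyte factor, differed by 0.02 ± 0.36.

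Tnf and Tslp were under the gauge on every array. Tnf read 1.85, 2.32 and 0.28 in control and 3.81, 0.00 and 2.17 in miR-200 cells. Tslp, an epithelial cytokine that acts on dendritic cells, read 0.00, 1.10 and 0.59 against 1.79, 2.19 and 2.22. The Tslp groups did not overlap (1.504 ± 0.31, adjusted p = 0.130; 0.0344 with array weights), but such values are not distinguished from background, and no fold is given.

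**Figure D3:**
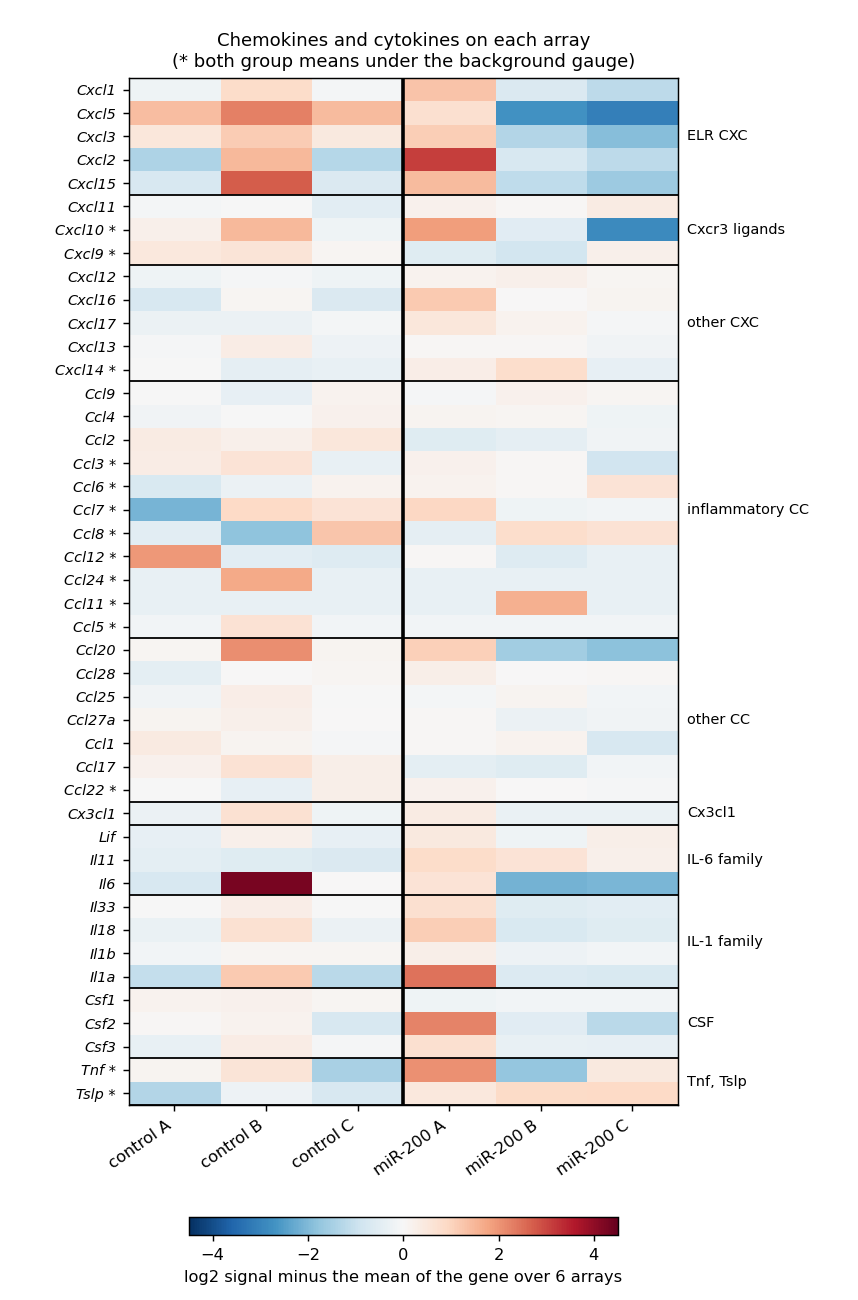
Deviation of each gene on each array from its own mean over 6 arrays, in log2 units, with genes grouped by role and stars for genes under the background gauge in both groups. Control B and miR-200 A are red for most ELR CXC chemokines, Ccl20, Il6 and the IL-1 family, while Cxcl5 is blue on miR-200 B and C alone.

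In 17 of 44 members control B and miR-200 A were both above the other 4 arrays (38.6%, against 14.1% of all genes), and 14 of the 17 had a group mean above the gauge. Among the 93 receptors, inhibitors, NF-kB pathway and induced genes taken up below, the same held for 32 (34.4%). These counts describe cultures that were singled out on these data and have no test. The 17 members were Cxcl1, Cxcl2, Cxcl3, Cxcl10, Cxcl13, Cxcl15, Ccl7, Ccl20, Cx3cl1, Il1a, Il1b, Il18, Il33, Il6, Csf2, Csf3 and Tnf, of which 14 had a group mean above the gauge. Among these 14, the mean of miR-200 B and C lay below that of control A and C in 11. The same count over all genes was not made, so no direction is read from it. For Il6 (2.10 against 3.83) and Cxcl15 (4.56 against 5.28) both means were at or under the gauge. Cx3cl1 counts among the 11 at -0.07, while another of its probe sets differed by 0.78 on the same arrays. Without these cultures, with 2 left per group, groups did not overlap in 9 members that were higher (20.5%, against 28.5% of all genes) and 16 that were lower (36.4%, against 29.1%). In sum that is 25 members (56.8%), near the 57.6% of all genes.

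Of the receptors, inhibitors and NF-kB pathway genes around these members, few passed. Among 93 genes measured of 101 listed, 1 rose, Ppbp, and 1 fell, Crlf2, and the median difference was 0.02. Before adjustment 8 were higher (8.60%) and 7 lower (7.53%) at p under 0.05 in limma, near the 6.35% and 8.47% of all genes. The smaller lists below are too short for their counts to be read against these shares. Crlf2, the receptor chain for Tslp, read 10.04, 10.26 and 10.14 in control and 9.09, 8.80 and 8.82 in miR-200 cells. All 3 miR-200 cultures were lower, including miR-200 A, by -1.24 ± 0.15, which is 2.37-fold lower (limma, adjusted p = 0.0416). The call was lost without both cultures that stand apart (-1.28, adjusted p = 0.0725), and with 1 array left out it held without miR-200 A (-1.34, adjusted p = 0.0467) but not without any of the other 5 (-1.30 to -1.18, adjusted p = 0.102 to 0.184). It was one of 15 cytokine receptors measured, and none of the other 14 passed.

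Of 21 chemokine receptors measured, 0 passed in limma, and at an unadjusted p under 0.05 there were 0 higher and 1 lower. Ccrl2, an atypical receptor that binds chemerin, read 7.11, 7.04 and 6.98 against 6.603, 6.64 and 6.66 (-0.41 ± 0.12, adjusted p = 0.225). Ccr7, the receptor for lymph node chemokines, differed by -0.43, its miR-200 mean under the gauge, and the scavenging receptor Ackr1 by 0.28, both without overlap. Cxcr2, the receptor for the ELR chemokines, was at 0 on every array, and Cxcr4 was under the gauge on every array.

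Of 12 inhibitors and processing enzymes, 0 passed in limma (1 higher and 1 lower at an unadjusted p under 0.05). Il1rn, the natural antagonist of the IL-1 receptor, read 12.58, 12.76 and 12.60 in control and 11.70, 9.01 and 8.88 in miR-200 cells. The pattern resembled that of Cxcl5, with miR-200 A nearest to control, and all 3 probe sets had differences below 0. The difference was -2.78 ± 0.79 (adjusted p = 0.225), and it passed without miR-200 A (-3.70 ± 0.13, adjusted p = 0.0139) and without both cultures that stand apart (-3.64 ± 0.11, adjusted p = 0.0480). The inflammasome sensor Nlrp3, its control mean under the gauge, differed by 0.48, the sheddase Adam10 by -0.30 and the signalling inhibitor Socs1 by 0.29, without overlap.

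In the NF-kB pathway, 0 of 33 genes measured passed in limma, with 3 higher and 2 lower at an unadjusted p under 0.05. The apoptosis inhibitor Birc3, itself an NF-kB target, read 8.59, 8.28 and 8.35 against 8.16, 6.88 and 6.77 (-1.13 ± 0.40, adjusted p = 0.303). It passed without miR-200 A (-1.58 ± 0.15, adjusted p = 0.0459). Ikbkb, a kinase that frees NF-kB, read 9.05, 9.13 and 9.04 against 9.54, 9.59 and 9.58, an even difference over all cultures (0.49 ± 0.11, adjusted p = 0.156). The adaptor Myd88 of IL-1 and Toll-like receptors differed by -0.42 and the kinase Map3k7 by 0.43, both without overlap. Control B and miR-200 A were both highest in 15 of the 33 (45.5%), against 34.4% of the 93 genes around the members and 14.1% of all genes. The share was 44.4% in the inflammatory genes below, 40% in cytokine receptors, 33.3% in inhibitors and processing enzymes and 14.3% in chemokine receptors.

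Of 9 inflammatory genes induced beside cytokines, 0 passed in limma, with 2 higher and 1 lower at an unadjusted p under 0.05. Vcam1, which binds leukocyte integrins, read 12.11, 13.06 and 12.14 in control and 11.93, 10.44 and 10.08 in miR-200 cells (-1.62 ± 0.56, adjusted p = 0.292). The prostaglandin synthase Ptgs2 read 10.998, 11.61 and 11.31 against 12.53, 12.26 and 12.33. Its miR-200 values were higher in every culture (1.07 ± 0.20, adjusted p = 0.102), and its dimmer probe set differed by 1.80 ± 0.27 (adjusted p = 0.0717). Ptgs2 passed when the dimmest 40% were left out (adjusted p = 0.0367), with the variance trend (0.0241), with array weights (0.0374) and with the 2-level term (0.0468). The neutrophil-type lipocalin gene Lcn2, chosen after its values were seen, read 12.62 and 13.12 on control B and miR-200 A and 9.38 to 9.97 on the other arrays.

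**Figure D4:**
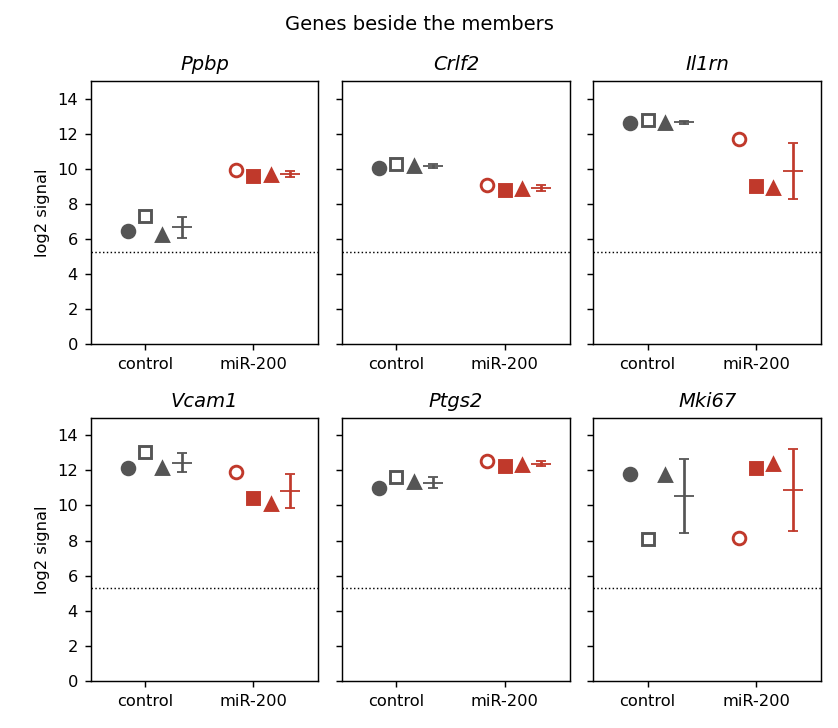
Log2 signal of 5 genes around the members and of the proliferation marker Mki67 on each array, with the symbols, bars (mean ± SD, 3 cultures) and dotted gauge line of the plot of 8 members. Ppbp and Crlf2 separate the groups in all cultures, Il1rn and Vcam1 mainly in miR-200 B and C, and Mki67 is low on control B and miR-200 A only.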

How the data were processed

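Biotin-labelled cRNA of 6 cultures was hybridized to Affymetrix mouse expression arrays, per the labels' protocols. The labels name the 430A 2.0 design, whereas the table holds 45101 probe sets. The deposited values are log2 signals per probe set; the summary and normalization behind them are not stated in the labels. Their range fits base 2, and 1578 to 1718 values per array are exactly 0. Arrays were quantile normalized, and 64 control probe sets left out, with limma 3.58.1 in R 4.3.3. Of 45037 probe sets, 34945 have 1 gene symbol in the platform annotation, updated by gene number through RefSeq (GRCm38.p6), 932 several and 9160 none listed. miR-200 minus control was fitted over all probe sets (lmFit, eBayes, two-sided, Benjamini-Hochberg, threshold 0.05), with no low-value filter. The precision is limited by 3 arrays per group. A probe set was kept for its gene in all settings. Dim groups have only a bound: the fold is then the brighter mean over the gauge.

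The members, lists and rules were chosen with earlier results of these data known. Named with all values were members past the threshold, those above the gauge without overlap (up to 14), the 10 with the highest mean, the 6 with the largest range, and 17 listed by symbol whatever their values. Of the other lists, genes past the threshold or else up to 4 without overlap were named. Alternatives were the values as deposited, median centring, no dimmest 40%, a variance trend, a block for the replicate letter, array weights, averaging the probe sets of a gene, and each array left out; leaving out control B and miR-200 A, and a 2-level term for them, were added later. The fit was tested on simulated data with independent noise on each array. Such data lack the deviations shared by control B and miR-200 A, so the fit was not tested under these.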

Additional observations from a re-analysis of the deposited data

How the results depend on the processing

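The count of 0 members past the threshold held with the values as deposited, centring, without the dimmest 40% (which kept 26 of 44 members), the variance trend, the replicate block, the mean of probe sets and the 2-level term. It became 2 with array weights (Il11 and Tslp) and 1 without both cultures that stand apart (Cxcl5), and ranged from 0 to 1 without 1 array (1 without miR-200 A, Cxcl5). The cause was not tested. The 335 probe sets called on the array became 923 without the dimmest 40%, 951 with the variance trend, 1291 with array weights, 103 without both cultures, 946 with the term and 32 to 328 without 1 array, lowest without control A. Under a replicate block by letter 0 probe sets, 0 members and 0 of the genes around them passed in limma (Ppbp adjusted p = 0.239, Crlf2 0.321); same-letter deviations correlated at -0.58 (A), -0.67 (B) and 0.43 (C), so the letters are not taken to pair the cultures. The 2 genes called around the members became 4 with array weights and 4 with the term, a term chosen on these data, and 0 to 3 without 1 array. Members without overlap went from 9 (20.5%, against 23.5% of all genes) to 25 without both cultures (56.8%, against 57.6%) and to 9 to 21 without 1 array, most without miR-200 A (47.7%, against 42.2%), since fewer arrays raise this share for all genes; the median of the members ranged from -0.307 to 0.128.

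Of 399 gene results under alternatives, 22 changed sign, and no gene among these passed the test in the main or the changed setting. With the mean of probe sets Ccl9 was at -0.26, Cx3cl1 at 0.10, Cxcl11 at -0.98 and Lif at -0.44. With array weights Csf2 was at -0.14 and Tnf at -0.0743, and Csf2 was at -0.53 without both cultures. Without 1 array the ranges were -0.0182 to 0.25 for Ccl9, -0.69 to 1.03 for Csf2, -0.38 to 0.15 for Cx3cl1, -1.09 to 0.13 for Cxcl1, -2.18 to 0.19 for Cxcl10, -1.86 to 0.23 for Cxcl15, -0.54 to 1.74 for Cxcl2, -0.66 to 0.24 for Il18, -0.28 to 1.52 for Il1a, -0.60 to 0.0421 for Il33 and -0.40 to 1.51 for Tnf. Signal near background limits the 14 members under the gauge in both groups, and 3 arrays per group limit all.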
